A study of Mus musculus with 6 samples.

Results

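Prostaglandin synthesis and reception was examined as a set of 10 named genes in CT26.WT, a line of mouse colon carcinoma cells much used as a tumour model. The genes were taken by symbol, from the release of arachidonic acid (Pla2g4a) through the cyclooxygenases (Ptgs1, Ptgs2) and the terminal prostaglandin E synthases (Ptges, Ptges2) to the receptors (Ptger1, Ptger4), transport (Slco2a1, Abcc4) and breakdown (Hpgd). Of these 10 genes, 9 had a row among the 25407 gene rows measured, and Hpgd was not analysed here. The treated cells (3 libraries) were given Cu2O@AuMn@HA particles, whose name gives copper oxide, gold and manganese, with the hydrogen sulfide donor NaHS and with NIR (near-infrared light). The control cells (3 libraries) are named only as the control group. Cells of both groups were CT26.WT, and RNA was extracted with Trizol. Because all parts of the treatment were given together, their effects cannot be told apart. How much was given, for how long and when the cells were harvested is not given in the sources used here. Nothing says that the libraries of a group came from separate cultures, so p-values measure the spread between these libraries, which may be technical.

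Prostaglandins are short-lived lipid signals made from arachidonic acid. Cytosolic phospholipase A2 frees arachidonic acid from membranes, a cyclooxygenase turns it into prostaglandin H2, and terminal synthases convert that into prostaglandin E2 or other prostanoids, which leave the cell and act on G protein-coupled receptors. In colorectal tumours the inducible cyclooxygenase COX-2, product of Ptgs2, is known as a source of prostaglandin E2, which acts on tumour and immune cells, and a rise of Ptgs2 mRNA is widely used as a readout in studies of ferroptosis, a cell death that depends on iron and lipid peroxides.

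Promoter windows were available for 9 of the 10 genes (RefSeq, build GRCm38.p6, 250 bases before to 50 after the annotated start; there was no entry for Ptger1). Those of the 2 cyclooxygenase genes and of the phospholipase gene, whose product acts before the cyclooxygenases, are shown. The transcripts of Ptgs2 and Pla2g4a rose, while that of Ptgs1 fell by a small amount. They lie at chr1:150099781-150100080, plus strand (Ptgs2), chr2:36230176-36230475, plus strand (Ptgs1), and chr1:149961241-149961540, minus strand (Pla2g4a). Capitals mark, in the Ptgs2 window, a match to the C/EBP motif and a joined match to the cAMP response element core and the E-box; the letters of the motifs, other than NF-kappaB, follow the sequences.
Ptgs2: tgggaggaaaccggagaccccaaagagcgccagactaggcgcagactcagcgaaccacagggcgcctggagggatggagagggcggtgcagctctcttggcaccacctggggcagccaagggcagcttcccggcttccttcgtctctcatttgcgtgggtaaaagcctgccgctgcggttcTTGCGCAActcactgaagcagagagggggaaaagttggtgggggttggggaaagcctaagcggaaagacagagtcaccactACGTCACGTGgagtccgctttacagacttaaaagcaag
Ptgs1: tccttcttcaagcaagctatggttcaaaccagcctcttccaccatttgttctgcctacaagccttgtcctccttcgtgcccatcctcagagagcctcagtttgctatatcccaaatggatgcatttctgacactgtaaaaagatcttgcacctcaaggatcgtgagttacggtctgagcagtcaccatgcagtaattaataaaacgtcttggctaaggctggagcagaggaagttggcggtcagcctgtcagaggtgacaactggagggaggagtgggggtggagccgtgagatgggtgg
Pla2g4a: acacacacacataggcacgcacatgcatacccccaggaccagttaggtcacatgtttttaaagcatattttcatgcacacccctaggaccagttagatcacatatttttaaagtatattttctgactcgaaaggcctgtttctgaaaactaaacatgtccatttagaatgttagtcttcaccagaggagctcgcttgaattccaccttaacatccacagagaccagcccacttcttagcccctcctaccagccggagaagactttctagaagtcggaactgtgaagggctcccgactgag
A search of both strands for 12 motifs used the cAMP response element core (TGACGT), E-box (CACGTG), C/EBP (TTGCNNAA), TATA box (TATAAA), hypoxia response core (ACGTG), heat shock element core (GAANNTTC), AP-1 (TGANTCA), NF-kappaB, antioxidant response (TGACNNNGC), metal response core (TGCGCNC), EGR1 core (GCGNGGGCG) and SP1 core (GGGCGG). The Ptgs2 window held a C/EBP match at bases -69 to -62 from the annotated start, and a cAMP response element core at bases 13 to 18 that overlapped an E-box at 17 to 22. The same E-box also held the hypoxia response core on each strand, since ACGTG is part of CACGTG, and an SP1 core lay at -170 to -165. Among all 32851 windows of this length, 10.8% held the C/EBP motif, 7.51% the cAMP response element core, 7.15% the E-box, 19.6% the hypoxia response core and 35.7% the SP1 core. The Ptgs1 window and the Pla2g4a window shown held none of the 12 motifs, which says only that these letters were not in these windows. Another Pla2g4a window, not shown, held a TATA box match at -200 to -195 on the opposite strand. A match is a description of the sequence and no measure of binding.

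The totals were 62328377 to 70323604 estimated counts in treated libraries and 71409968 to 81821380 in control libraries. The value 4 was seen 4054 times and its neighbours 3 and 5 on average 2540 times, so 1 sequenced fragment seemed to weigh about 4 estimated counts and the number of fragments is nearer to the totals divided by 4. Library control 2 stood apart from the other control libraries on the second principal component (14.4% of the variance). Ribosomal RNA took 0.251% to 0.260% of counts in treated libraries and 3.62% to 3.94% in control libraries. Genes of higher transcript GC content tended to lower fold changes (Spearman -0.24 over 10237 genes, no independent replicates), and the part of GC content in the results was not tested beyond the values with a GC correction given below. The 8 epithelial markers summed to 224 to 238 FPKM in treated and 153 to 169 FPKM in control libraries (3 of 6 tested rose, 1 fell). Krt18 ran from 152 to 172 FPKM in treated and from 58.6 to 69.0 FPKM in control libraries. Krt20 went the other way, from 53.4 to 61.8 FPKM in treated and from 87.1 to 93.1 FPKM in control libraries. Epcam, Cdh1 and Vil1, on the same list, were at or near 0 in both groups. The summed leukocyte and macrophage markers ran from 58.4 to 66.5 FPKM in treated libraries and from 30.5 to 30.7 in control libraries; Cd68, also a lysosomal protein of other cells, made up 61.0 FPKM of that in treated and 27.7 FPKM in control cells, while Ptprc was listed at 0 except for 0.00292 FPKM in treated 3. Of 9 markers on that list, 6 had a row, and 1 of 4 tested rose. The 5 endothelial markers summed to 0.203 to 0.223 FPKM in treated and 0.0877 to 0.147 FPKM in control libraries (1 of 2 tested rose). Kdr was at 0 in every library except treated 3 (0.0157 FPKM). The 7 stromal markers summed to 66.2 to 74.8 FPKM in treated and 100.1 to 110.2 FPKM in control libraries (1 of 6 tested rose, 4 fell). Of 6 platelet and mast cell markers 3 had a row, and they summed to 4.56 to 4.82 FPKM in treated and 3.42 to 3.93 FPKM in control libraries (1 of 2 tested rose). The part of these markers in the results below was not tested.

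In treated cells the inducible cyclooxygenase gene Ptgs2 rose about 4-fold and the phospholipase gene Pla2g4a about 2-fold. The export pump gene Abcc4, the constitutive cyclooxygenase gene Ptgs1 and the synthase gene Ptges2 fell. The last pair fell by small amounts, and their calls were lost under some of the settings given below. The main prostaglandin E synthase gene, Ptges, was the most abundant of the set in both groups and did not pass the test. Of the 9 genes with a row, 8 passed the filter on low counts, and of these 2 rose, 3 fell and 3 did not pass at an adjusted p of 0.05 (edgeR quasi-likelihood test, Benjamini-Hochberg over 16212 rows). Of all rows tested 46.6% were called, 23.0% higher and 23.5% lower, and the 5 of 8 called here are to be read against that background. Of all rows 9.87% were called at least 2-fold higher, as both rising genes were, and 5.18% at least 2-fold lower, as none of the 8 was. Without overlap between the groups were 4 genes that were higher and 3 that were lower, against 30.4% and 27.1% of all rows tested (57.5% in either direction). The balance of directions over all rows depended on the scaling: with upper quartile factors the median of all rows was 0.18 instead of 0.06 on the log2 scale, and 4688 rows (28.9%) were called higher and 3028 (18.7%) lower, 47.6% in all, against 3735 and 3813. In bulk RNA, fewer cells of a kind and less RNA per cell cannot be told apart.

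**Figure D1:**
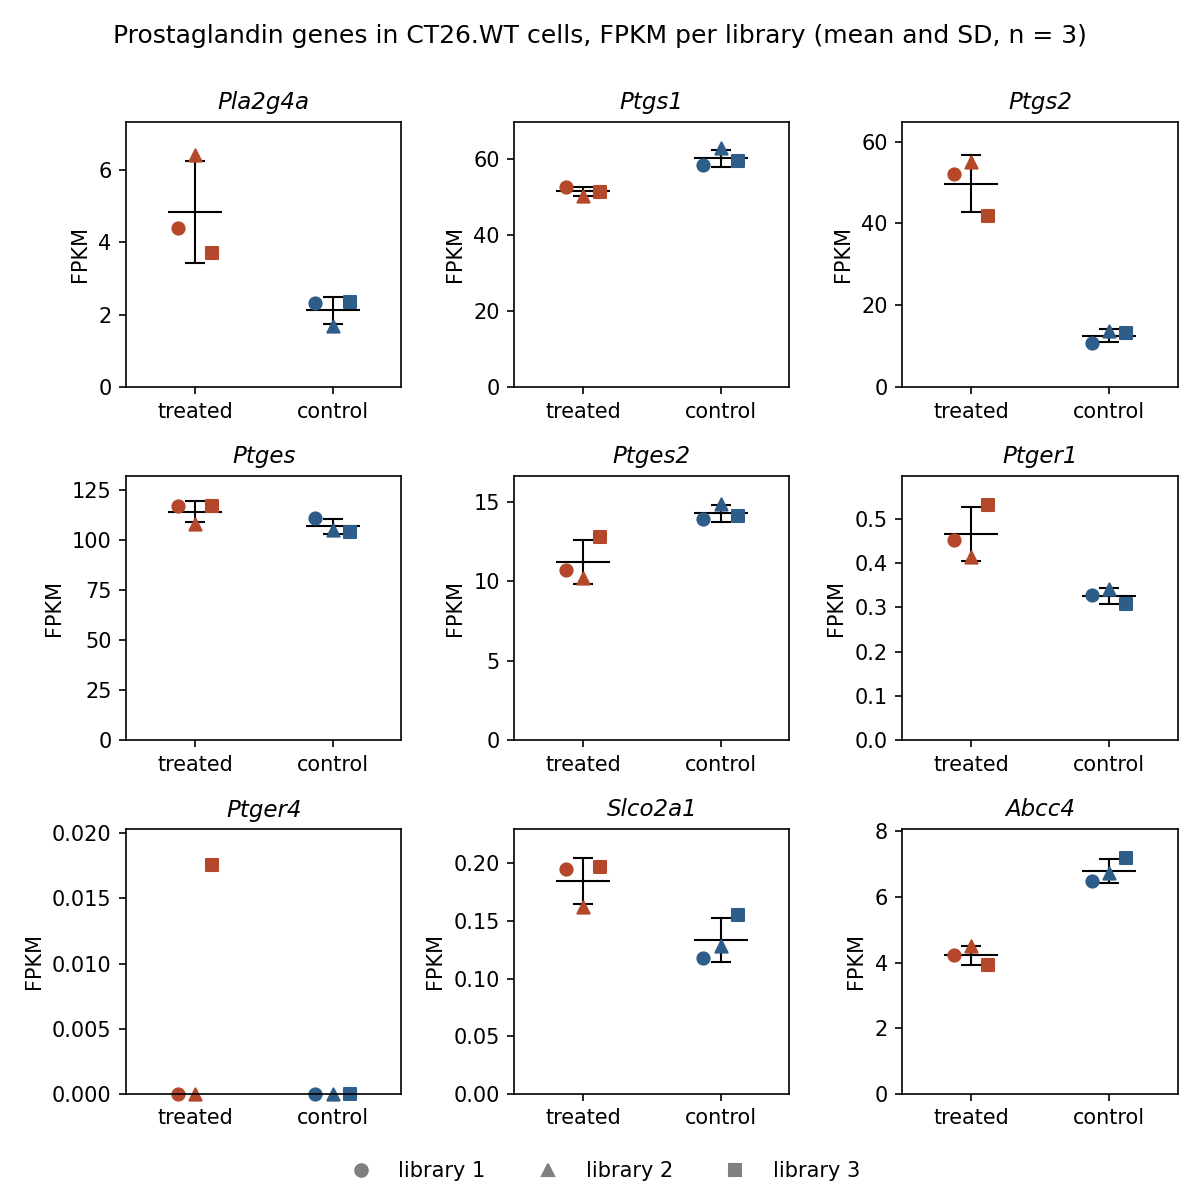
Each panel plots 1 gene's FPKM (y axis, from 0, scaled per panel) in the 3 treated and the 3 control libraries; symbols mark the library number, and horizontal lines and bars give the mean and SD (n = 3), except for Ptger4, listed at 0 in all but treated 3. Ptgs2 sits between 41.8 and 55.0 in treated and between 10.8 and 13.6 in control libraries, whereas Ptges overlaps between the groups.

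The first step of the pathway is the release of arachidonic acid by cytosolic phospholipase A2, the product of Pla2g4a (ENSMUSG00000056220, chromosome 1, 149705369 to 149837041, minus strand; here and below coordinates are the authors', build not given). Pla2g4a had 4.41, 6.43 and 3.70 FPKM in treated libraries 1 to 3, against 2.32, 1.69 and 2.36 FPKM in control libraries 1 to 3. The groups did not overlap, and library 2 was the highest of the treated and the lowest of the control libraries. The means were 4.85 ± 1.42 FPKM in treated and 2.13 ± 0.375 FPKM in control cells (SD, n = 3 each), a log2 fold change of 1.15 ± 0.19 (SE; edgeR adjusted p = 0.000899). Without both libraries numbered 2 the log2 fold change was 0.78 (adjusted p = 0.00152) and with the GC correction 0.88 (0.000232).

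Cyclooxygenases carry out the committed step, and the 2 isoforms moved in opposite directions, though the call of Ptgs1 was lost under some settings. Ptgs2 (ENSMUSG00000032487, chromosome 1, 149975782 to 149983978, plus strand) had 52.2, 55.0 and 41.8 FPKM in treated libraries, against 10.8, 13.6 and 13.3 FPKM in control libraries. Every treated library lay far above every control library, with treated 3 the lowest of its group. The mean level in treated cells, 49.7 ± 6.95 FPKM, was 3.95 times that in control cells, 12.6 ± 1.51 FPKM (SD, n = 3 each). The log2 fold change was 1.94 ± 0.12 (SE; edgeR adjusted p = 3.17e-06). Of all 16212 tested rows 608 (3.75%) had a larger log2 fold change, among them 38 of the 6168 rows with a mean of at least 5 FPKM. With the GC correction the log2 fold change of Ptgs2 was 1.42 (adjusted p = 5.2e-05).

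Ptgs1 (ENSMUSG00000047250, chromosome 2, 36120438 to 36142284, plus strand) encodes the isoform that most tissues make constantly. It had 52.6, 50.3 and 51.3 FPKM in treated libraries, against 58.4, 62.7 and 59.4 FPKM in control libraries. The groups did not overlap, but the fall was small, to a mean of 51.4 ± 1.15 FPKM in treated cells, against 60.2 ± 2.26 FPKM in control cells (SD, n = 3 each). The log2 fold change of -0.26 ± 0.08 passed (edgeR adjusted p = 0.0171). It did not pass without treated 1 (-0.28, adjusted p = 0.0567), without both libraries numbered 2 (-0.19, 0.111), with the GC correction (-0.13, 0.0766) or with upper quartile factors (-0.14, 0.124).

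The balance of the 2 cyclooxygenase transcripts therefore differed between the groups. FPKM is scaled to transcript length, so levels of different genes may be set side by side, as levels of gene rows and not of coding mRNA alone. The Ptgs1 row pooled 5 transcripts, among them types with a retained intron or no defined coding sequence. GENCODE M21 lists 1 protein-coding transcript for Ptgs1. The Ptgs2 row held 2 transcripts, of protein-coding type only. How much each transcript added to a row was not tested. Ptgs2 made up 49.8%, 52.2% and 44.9% of summed cyclooxygenase FPKM in treated libraries, against 15.7%, 17.8% and 18.3% in control libraries. In treated cells the Ptgs1 and Ptgs2 ranges overlapped, whereas in control cells Ptgs1 was above Ptgs2 in every library. The summed level was 101 ± 6.88 FPKM in treated and 72.7 ± 3.52 FPKM in control cells (SD, n = 3 each). These shares are given as a description with no test and carry no GC correction. Transcript GC content was 42.6% for Ptgs2 and 52.5% for Ptgs1. With the GC correction the log2 fold changes lay nearer to each other, at 1.42 for Ptgs2 and -0.13 for Ptgs1.

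**Figure D2:**
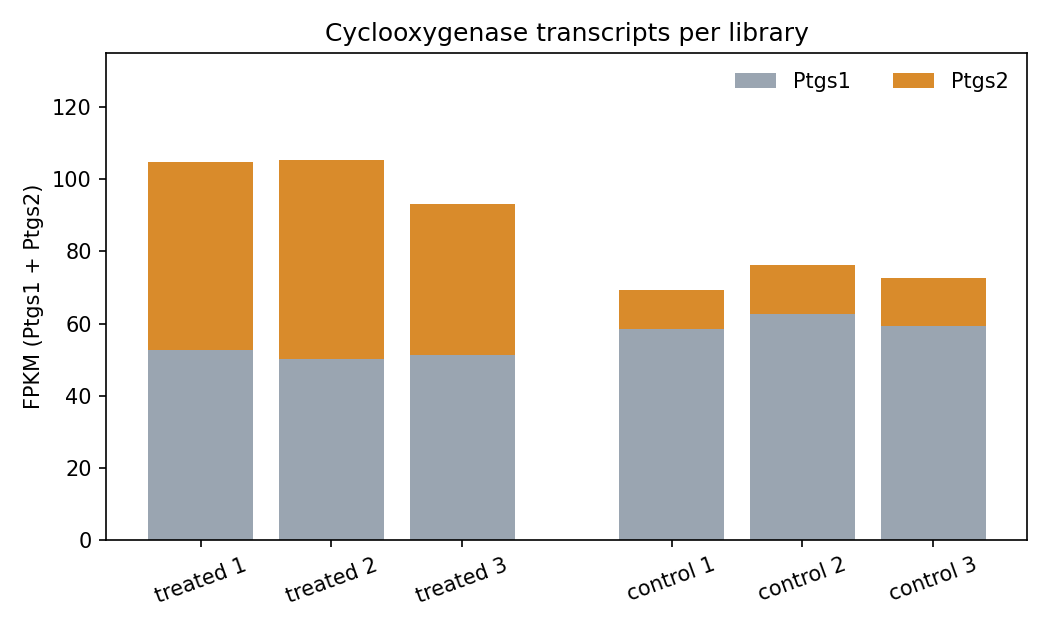
Stacked bars give the FPKM of Ptgs1 (grey) and Ptgs2 (orange) in each of the 3 treated and 3 control libraries, on a linear axis from 0. The Ptgs1 part is between 50.3 and 52.6 in treated and between 58.4 and 62.7 in control libraries, while the Ptgs2 part is about 4 times as high in treated libraries.

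Pla2g4a and Ptgs2 are neighbours on chromosome 1, on opposite strands with their starts 139 kb apart by the authors' coordinates. Of the rows measured, only Ptgs2os lay between them. It is an antisense-named gene on the minus strand whose start lies next to that of Ptgs2, and it was named after its values were seen. Ptgs2os had 0.402 FPKM in treated and 0.557 FPKM in control cells on average (log2 fold change -0.51, edgeR adjusted p = 0.0713). The difference of Ptgs2os from the genes on either side was not tested. Another antisense-named gene, Ptgs2os2, lay on the minus strand beyond Ptgs2, at 150034794 to 150040767, and moved the other way. Ptgs2os2 had 2.27 FPKM in treated and 1.23 FPKM in control cells on average and was called higher (0.85, edgeR adjusted p = 0.0151). It too was named after its values were seen. Farther beyond Ptgs2, Odr4 had 2.17 FPKM in treated and 0.309 FPKM in control cells on average. Odr4 was called higher (2.78, edgeR adjusted p = 3.25e-05), a larger log2 fold change than that of Ptgs2. The other tested rows on that side, Gm9687, Rbm3-ps, Pdc and Tpr, were not called. A rise was thus not particular to Pla2g4a, Ptgs2 and Ptgs2os2 in this stretch.

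Terminal prostaglandin E synthases set which prostanoid is made. Ptges (ENSMUSG00000050737, chromosome 2, 30779483 to 30793309, minus strand) encodes the microsomal synthase that usually works with COX-2. It had 117, 108 and 117 FPKM in treated libraries, against 111, 105 and 104 FPKM in control libraries. The groups overlapped, at means of 114 ± 5.50 FPKM in treated and 107 ± 3.86 FPKM in control cells (SD, n = 3 each), and the log2 fold change was 0.06 ± 0.08 (edgeR adjusted p = 0.553). With the GC correction it was 0.19 and passed (adjusted p = 0.0137).

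Ptges2 (ENSMUSG00000026820, chromosome 2, 32285908 to 32295784, plus strand) encodes a second membrane-associated synthase. It had 10.7, 10.2 and 12.8 FPKM in treated libraries, against 13.9, 14.9 and 14.1 FPKM in control libraries. The treated libraries were all lower, with treated 3 nearest to the control libraries. Ptges2 fell to 11.2 ± 1.39 FPKM in treated cells, against 14.3 ± 0.547 FPKM in control cells (SD, n = 3 each; log2 fold change -0.38 ± 0.11, edgeR adjusted p = 0.0164). The call was lost without treated 1 (-0.35, adjusted p = 0.0687), without control 2 (-0.34, 0.0506), without both libraries numbered 2 (-0.25, 0.118), with upper quartile factors (-0.26, 0.0728) and with no filter on low counts (-0.36, 0.0508).

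Ptges took 91.6%, 91.3% and 90.1% of the summed FPKM of these 2 synthase genes in treated libraries, against 88.9%, 87.6% and 88.0% in control libraries. The ranges did not overlap, and the difference of 2.88 percentage points was small beside that of the cyclooxygenases. Both rows also pooled transcripts of types other than protein-coding, so these are shares of gene rows.

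Receptor transcripts were scarce in both groups. Ptger1 (ENSMUSG00000019464, chromosome 8, 84393307 to 84399382, plus strand) encodes EP1, a receptor for prostaglandin E2 that raises intracellular calcium. It had 0.453, 0.413 and 0.532 FPKM in treated libraries, against 0.327, 0.342 and 0.308 FPKM in control libraries. All treated libraries were higher, but the log2 fold change of 0.48 ± 0.21 did not pass (edgeR adjusted p = 0.0891). It passed with library totals only (0.56, adjusted p = 0.0483), with upper quartile factors (0.61, 0.0375) and with the GC correction (0.60, 0.0202).

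Ptger4 (ENSMUSG00000039942, chromosome 15, 5236142 to 5273653, minus strand) encodes EP4, which signals through cAMP. It was listed at 0 in treated 1, treated 2 and all control libraries and at 0.0176 FPKM in treated 3, from 9 estimated counts. That is below the 12 estimated counts, or 3 fragments, used as the limit that a count of 0 allows, which for this row was 0.0235 FPKM in treated 3 and covers counting error only. The row rested on 1 transcript with no defined coding sequence, whereas GENCODE M21 lists 3 Ptger4 transcripts, 2 of them protein-coding, and it overlaps Ttc33 on the opposite strand over 11676 bases. Ttc33 itself rose to 4.40 FPKM in treated cells, against 2.21 FPKM in control cells (0.95, edgeR adjusted p = 0.00815). Whether the authors' counting used the strand is not given in the sources used here, so reads of Ptger4 and Ttc33 cannot be told apart. The Ptger4 row was thus not above the counting limit in any library. Ptger2, which encodes the other cAMP-linked receptor EP2, was also at 0 apart from 0.0102 FPKM in control 3.

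Transport decides how long prostaglandins stay outside the cell. Abcc4 (ENSMUSG00000032849, chromosome 14, 118720104 to 118943631, minus strand) encodes an ATP-driven pump (MRP4) that can export prostaglandins. It had 4.24, 4.52 and 3.94 FPKM in treated libraries, against 6.48, 6.73 and 7.18 FPKM in control libraries. The groups were well apart: Abcc4 fell to 4.23 ± 0.287 FPKM in treated cells, against 6.80 ± 0.357 FPKM in control cells (SD, n = 3 each; log2 fold change -0.72 ± 0.09, edgeR adjusted p = 0.000125). Its call held in all 19 alternatives tried, at -0.79 to -0.58.

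Slco2a1 (ENSMUSG00000032548, chromosome 9, 102865911 to 102973201, plus strand) encodes the carrier that takes prostaglandins up for breakdown. It had 0.195, 0.162 and 0.197 FPKM in treated libraries, against 0.118, 0.128 and 0.155 FPKM in control libraries. The lowest treated library was just above the highest control library. The log2 fold change of 0.43 ± 0.22 did not pass (edgeR adjusted p = 0.128), and it passed with the GC correction (0.56, 0.0434).

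In order of level in treated cells the genes ran Ptges, Ptgs1, Ptgs2, Ptges2, Pla2g4a, Abcc4, Ptger1, Slco2a1 and Ptger4. The ranges of Ptgs1 and Ptgs2, and those of Pla2g4a and Abcc4, overlapped, while the other neighbours in the order did not. In control cells the order was Ptges, Ptgs1, Ptges2, Ptgs2, Abcc4, Pla2g4a, Ptger1, Slco2a1 and Ptger4, with no overlap between neighbours. Ptgs2 and Ptges2 thus stood in a different order in the 2 groups, as did Pla2g4a and Abcc4, the second pair with overlapping ranges in treated cells.

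**Figure D3:**
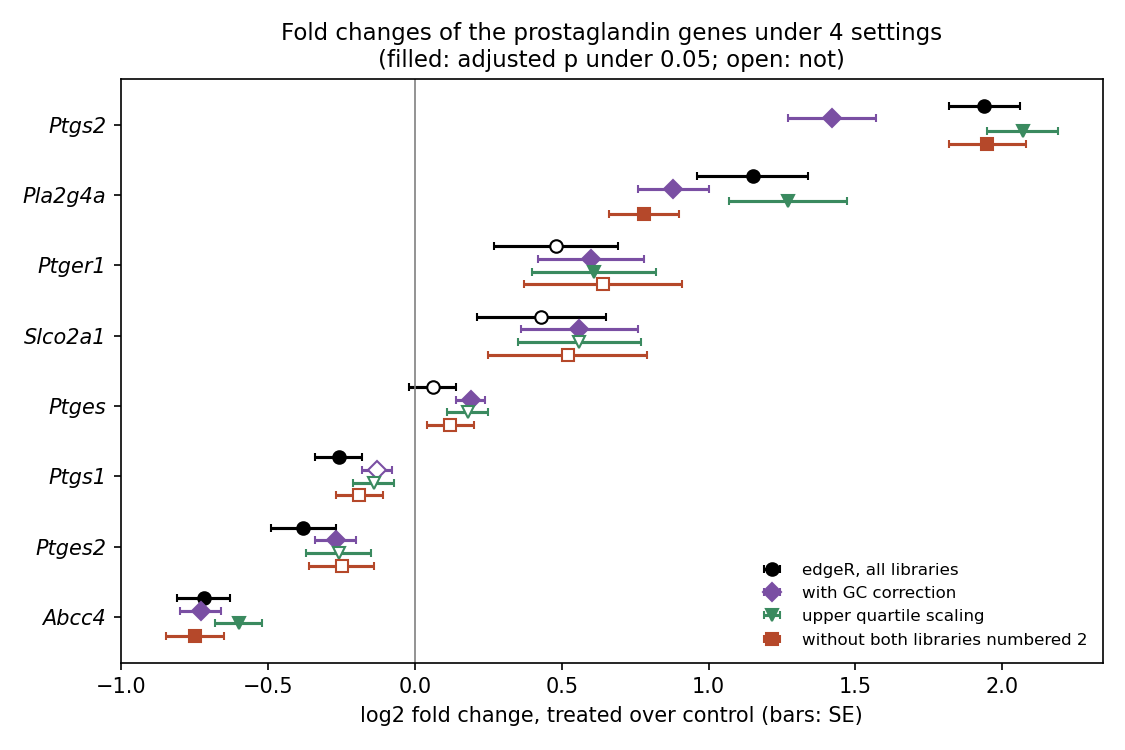
Log2 fold changes of the 8 tested genes, treated over control (x axis; bars are the SE), under 4 settings per gene; filled symbols passed an adjusted p of 0.05 and open ones did not. Ptgs2, Pla2g4a and Abcc4 are filled under each of the 4, while Ptgs1, Ptges2, Ptges, Ptger1 and Slco2a1 are filled under some only.

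Around these genes, 7 lists cover the rest of the prostanoid pathway and its neighbours; over all rows tested the median log2 fold change was 0.06, and 46.6% were called, 23.0% higher and 23.5% lower. Of 14 other prostanoid synthase genes 10 were tested, of which 2 rose and 3 fell, with a median of 0.06. Ptgds, the lipocalin-type prostaglandin D synthase, had 3.58, 3.20 and 3.95 FPKM in treated libraries, against 0.283, 0.298 and 0.586 FPKM in control libraries. The change, 3.14 ± 0.30 as log2 fold change, was the largest of the list (adjusted p by edgeR = 2.49e-05), and the groups were far apart. Akr1c18, an aldo-keto reductase that also breaks down progesterone, had 14.2, 20.6 and 13.9 FPKM in treated libraries, against 6.78, 2.76 and 5.07 FPKM in control libraries (1.71 ± 0.28, 0.000796). Ptgis, the prostacyclin synthase, fell to 4.65, 4.72 and 5.27 FPKM in treated libraries, against 8.48, 8.83 and 10.2 FPKM in control libraries (-0.95 ± 0.12, 0.000199). The glutathione transferase gene Gstm2 fell by 0.37 on the log2 scale (edgeR adjusted p = 0.00568), with 74.4 FPKM in treated and 93.8 FPKM in control cells. The aldo-keto reductase gene Akr1b8 was at 51.3 FPKM in treated and 58.2 FPKM in control cells (-0.22, 0.0277), a call lost without treated 1 (0.0603) and without control 3 (0.0679), with library totals only (-0.14, 0.142), with upper quartile factors (-0.10, 0.278) and with the GC correction (-0.12, 0.113). Ptges3, the cytosolic synthase and HSP90 co-chaperone p23, averaged 24.3 ± 4.25 FPKM in treated and 19.3 ± 3.57 FPKM in control cells (SD, n = 3 each; 0.30, edgeR adjusted p = 0.102). It passed without control 1 (0.42, 0.0318) and with upper quartile factors (0.42, 0.0357), and passed the other way with the GC correction (-0.24, 0.0183). Of the low synthase genes, Ptges3l had 1.41 FPKM in treated and 1.33 FPKM in control cells, Cbr2 0.801 and 0.841 FPKM, and Cbr1 0.141 and 0.0740 FPKM in the same order, and none of the 3 passed.

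Of 7 other prostanoid receptor genes 2 were tested, of which 1 fell, with a median of -0.89, against 23.0% higher and 23.5% lower over all rows. Ptger3, Ptgdr and Ptgfr were not analysed here, and Ptgdr2 had at most 9 estimated counts in a library. Tbxa2r, the thromboxane receptor, fell to 0.150, 0.117 and 0.150 FPKM in treated libraries, against 0.570, 0.524 and 0.235 FPKM in control libraries (-1.66 ± 0.46, edgeR adjusted p = 0.0139). Control 3 was the control library nearest to the treated ones, these levels rest on 18 to 22 estimated counts in treated and 34 to 88 in control libraries, and the call was lost without both libraries numbered 2 (0.110). Ptgir, the prostacyclin receptor, had 0.539, 0.526 and 0.568 FPKM in treated libraries, against 0.347, 0.497 and 0.891 FPKM in control libraries, which overlapped (-0.12 ± 0.33, 0.800).

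Of 30 genes of arachidonate release and reacylation 23 were tested, of which 6 rose and 7 fell, with a median of -0.14, against 23.0% higher and 23.5% lower over all rows. Anxa1, a phospholipid-binding protein first described as an inhibitor of phospholipase A2, had 59.4, 86.6 and 53.2 FPKM in treated libraries, against 15.8, 9.88 and 13.0 FPKM in control libraries (2.33 ± 0.19, edgeR adjusted p = 1.25e-05). As for Pla2g4a, library 2 was the highest treated and the lowest control library. Pnpla8, a calcium-independent phospholipase, rose to 1.02 ± 0.242 FPKM in treated cells, against 0.319 ± 0.0859 FPKM in control cells (SD, n = 3 each; 1.64, 0.00027). Acsl4, which activates arachidonic acid for its return to phospholipids, had 4.15, 5.92 and 3.52 FPKM in treated libraries, against 2.52, 1.86 and 2.31 FPKM in control libraries (0.99 ± 0.18, 0.00162), and did not pass with the GC correction (0.21, 0.0659). Dagla, a diacylglycerol lipase, fell to 3.68 ± 0.120 FPKM in treated cells, against 6.34 ± 0.678 FPKM in control cells (SD, n = 3 each; -0.82, 0.000263). Mboat7, which puts arachidonate into phosphatidylinositol, was at 11.8 FPKM in treated and 12.9 FPKM in control cells (-0.16, 0.121). Dagla and Mboat7 overlap genes on the opposite strand, Gm30042 (6.78 FPKM in treated and 3.23 FPKM in control cells) and Tsen34 (72.2 FPKM in treated and 101 FPKM in control cells), so reads there may be shared. Without treated 1, 8 rows of this list were called in place of 13, and over all rows 6073 of 16713 in place of 7548 of 16212.

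Of 12 genes of prostaglandin breakdown and further transporters 6 were tested, of which 2 rose and 1 fell, with a median of -0.06, against 23.0% higher and 23.5% lower over all rows. Slco4a1, an organic anion carrier that can move prostaglandins, rose to 13.3, 12.1 and 12.5 FPKM in treated libraries, against 6.47, 7.10 and 7.35 FPKM in control libraries (0.82 ± 0.09, edgeR adjusted p = 5.59e-05). Ptgr1, a reductase that inactivates oxidised prostaglandins and leukotriene B4, fell to 3.18 ± 0.207 FPKM in treated cells, against 4.82 ± 0.574 FPKM in control cells (SD, n = 3 each; -0.63, 0.00568). The pump gene Abcc1 (MRP1), which exports leukotriene C4, was at 10.1 FPKM in treated and 8.30 FPKM in control cells (0.25, 0.0202), a call lost without treated 1 (0.119), control 1 (0.106) or control 3 (0.0527). Ptgr2 was at 3.07 ± 0.278 FPKM in treated and 3.55 ± 0.574 FPKM in control cells (SD, n = 3 each; -0.24, edgeR adjusted p = 0.144), and passed without control 2 (-0.37, 0.0300) and with the GC correction (-0.49, 0.00233).

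Below the receptors, 21 of 23 genes of G protein and cAMP signalling were tested, of which 5 rose and 5 fell, with a median of 0.06, against 23.0% higher and 23.5% lower over all rows. The phosphodiesterase gene Pde4a, which breaks down cAMP, fell to 4.59 ± 0.210 FPKM in treated cells, against 7.17 ± 0.596 FPKM in control cells (SD, n = 3 each; -0.68, edgeR adjusted p = 0.000315). The receptor-silencing arrestin gene Arrb2 fell by 0.66 on the log2 scale (0.000594), and Prkar2a, a regulatory subunit of protein kinase A, fell by 0.69 (0.00415). Crem, a cAMP-responsive transcription factor, rose to 0.425 ± 0.130 FPKM in treated cells, against 0.185 ± 0.0563 FPKM in control cells (SD, n = 3 each; 1.17, 0.00887), a call lost without both libraries numbered 2 (0.0846). The abundant G protein gene Gnai2 was at 209.6 FPKM in treated and 192 FPKM in control cells (0.09, 0.391), and passed with the GC correction (0.22, 0.00254), library totals only and upper quartile factors. The number called was 4 without control 3 in place of 10, and 6 without treated 1, treated 2 or control 2. Over all rows it fell as well, from 7548 of 16212 to 6622 of 16873 without control 3 and 6073 of 16713 without treated 1. It was 6597 of 16690 without treated 2 and 6860 of 16891 without control 2.

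Of 24 factors known to act on the Ptgs2 gene or its mRNA all were tested, of which 8 rose and 4 fell, with a median of 0.08, against 23.0% higher and 23.5% lower over all rows. Egr1, an immediate early transcription factor, had 136, 128 and 129 FPKM in treated libraries, against 39.3, 50.2 and 47.1 FPKM in control libraries (1.48 ± 0.11, edgeR adjusted p = 5.54e-06). Of the C/EBP factors, Cebpb rose to 101 ± 7.55 FPKM in treated cells, against 50.9 ± 0.921 FPKM in control cells (SD, n = 3 each; 0.95, 1.67e-05). Cebpd moved the other way, to 8.16 ± 0.277 FPKM in treated cells, against 15.8 ± 1.08 FPKM in control cells (SD, n = 3 each; -0.99, 2.22e-05). Cebpa, also on this list, was called lower as well (-0.378, edgeR adjusted p = 0.0221). Zfp36l1, which binds AU-rich elements and speeds mRNA decay, rose to 7.58 ± 0.564 FPKM in treated cells, against 3.50 ± 0.385 FPKM in control cells (SD, n = 3 each; 1.08, 6.94e-05). The RNA-binding protein gene Rbm3 was at 51.6 FPKM in treated and 50.1 FPKM in control cells (0.01, 0.970; -0.05 without control 2). Cebpb and Cebpd overlap a gene on the opposite strand, so reads there may be shared.

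**Figure D4:**
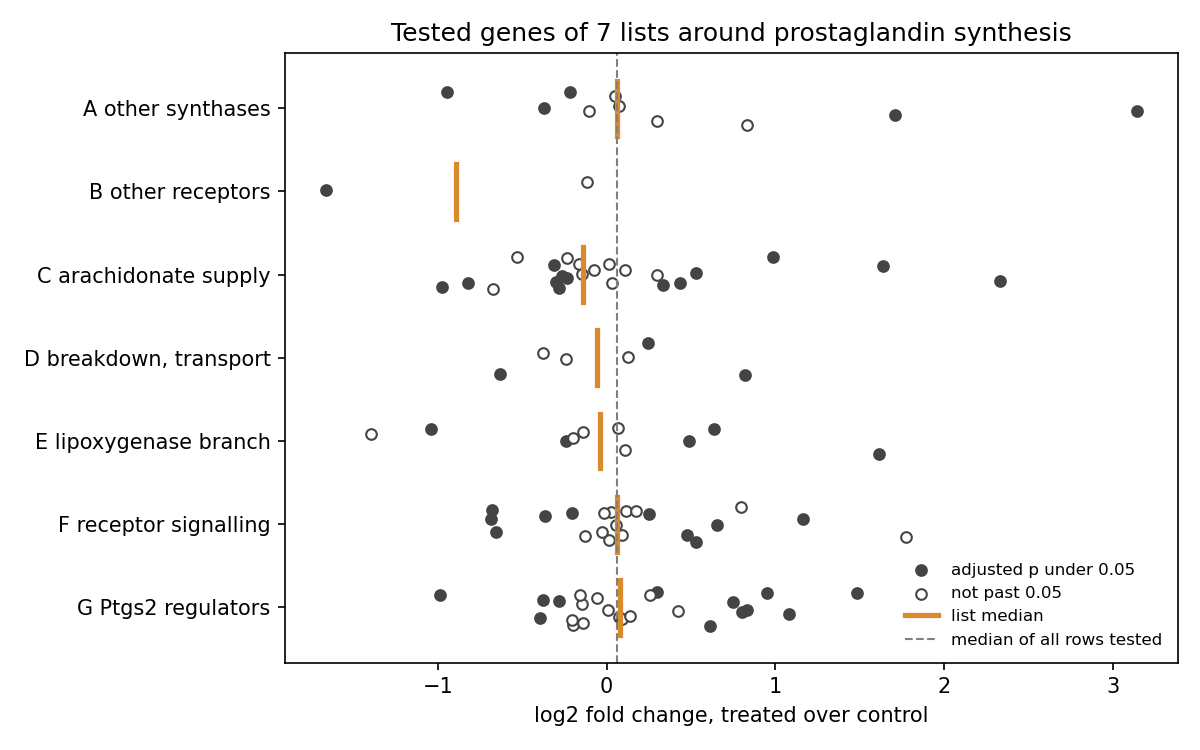
Each point is the log2 fold change (treated over control, x axis) of 1 tested gene on 1 of 7 lists around prostaglandin synthesis; filled points passed an adjusted p of 0.05, orange bars are list medians and the dashed line is the median of all rows tested (0.06). The medians of the lists with more than 2 tested genes lie between -0.14 and 0.08, and Ptgds (3.14) is the point farthest to the right.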

How the data were processed

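RNA was measured in 3 treated and 3 control libraries, grouped and numbered by their titles. Per the labels' protocols, libraries were oligo-dT selected and strand-marked with dUTP. Per the file headers, the authors deposited FPKM (fragments per kilobase of transcript, scaled to depth) and a count per gene. The deposited counts are taken as estimated counts: they are whole numbers, with an excess at multiples of 4. Of tools, the notes on processing by the submitters list HISAT2 2.2.1, cutadapt 1.9, StringTie 2.1.6, edgeR and DESeq2, with no roles. The sources used here give no genome build, annotation or use of strand; 1.73% of genes had the start and end of GENCODE M21 (GRCm38).

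Groups were compared with the quasi-likelihood test of edgeR 4.0.16 (R 4.3.3) on these counts, with edgeR's default filter, TMM scaling and Benjamini-Hochberg adjustment over 16212 rows, 2-sided, threshold 0.05; a number in brackets after a log2 fold change is its adjusted p. The SE is the absolute log2 fold change over the square root of F. The step was tested on simulated data in which 100 tested rows were changed 2-fold and 97 rows 4-fold, far fewer than were called here. It called 62% of the former, 86.6% of the latter and 7 unchanged rows. A gene that did not pass may therefore still have changed. Alternatives were DESeq2 1.42.0, limma 3.58.1 on log2(FPKM + 1) and log2(FPKM + 0.1) for a mean FPKM of at least 0.1, other scalings and filters, counts divided by 4, protein-coding genes only, a loess GC correction (span 0.4; GENCODE M21 transcripts), a replicate block, each library left out and, chosen after seeing the data, both libraries numbered 2 left out. The genes and lists were chosen with earlier results of these data known. Named from each list were up to 4 rows with the smallest adjusted p past the threshold, the most abundant row that did not pass, and synthases and receptors of at least 0.1 FPKM. Cebpa and the neighbours of Pla2g4a and Ptgs2 were named in addition, and their values under the alternatives are not given. A symbol on several rows was read from the row with the highest mean count. One overlap between genes is not reported here.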

Additional observations from a re-analysis of the deposited data

How the results depend on the processing

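The count of called genes was 7548 and stayed within 1.5 times of that in every alternative (6073 to 7264 with 1 library left out). Over 19 alternatives each, Ptgs2 stayed called at 1.42 to 2.07 on the log2 scale, Pla2g4a at 0.78 to 1.29 and Abcc4 at -0.79 to -0.58. Ptgs1 was not called with upper quartile factors (-0.14), GC correction (-0.13), a replicate block (-0.26, adjusted p = 0.0668), or block and GC correction together (-0.13). Ptges2 was not called with upper quartile factors (-0.26) or no filter (-0.36). Ptges was called with GC correction, with or without the block (0.19 in both). Ptger1 was called with library totals only (0.56), upper quartile factors (0.61) and GC correction (0.60), and Slco2a1 with GC correction (0.56). With 1 library left out, Ptgs1 ran from -0.32 to -0.23 and Ptges2 from -0.51 to -0.32; without both libraries numbered 2 they were -0.19 and -0.25. Same-numbered libraries did not deviate together (correlations -0.103, 0.00645 and 0.0399), and not every library correlated best with its own number. No pairing by number was thus seen, though so few libraries cannot exclude one. With the block 6275 genes were called. Among the genes named and followed through the alternatives, the sign turned for Ptges3, Cbr2, Ptges3l, Ptgir and Rbm3. Ptges3 was -0.24 with GC correction with or without the block. Cbr2 was 0.02 with upper quartile factors, -0.52 to 0.14 with 1 library left out and 0.07 without both numbered 2, and Ptges3l -0.01 to 0.09 with 1 left out. Ptgir was 0.01 with upper quartile factors and with limma on log2(FPKM + 0.1), 0.03 with GC correction, 0.13 with block and GC correction, and -0.41 to 0.31 with 1 left out. Rbm3 was -0.00 with DESeq2, -0.12 with GC correction with or without the block, -0.11 to 0.08 with 1 left out and -0.13 without both numbered 2. The causes were not tested. Genes under about 0.5 FPKM, such as Ptger1, Slco2a1 and Tbxa2r, rest on few fragments.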

Other observations

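The lipoxygenase and leukotriene branch uses the same arachidonic acid. Of its 21 genes 10 were tested, of which 3 rose and 2 fell, with a median log2 fold change of -0.04, against 23.0% higher and 23.5% lower over all rows. Ggt1, a gamma-glutamyltransferase that trims leukotriene C4, rose to 11.9 ± 0.801 FPKM in treated cells, against 7.45 ± 0.334 FPKM in control cells (SD, n = 3 each; log2 fold change 0.64, edgeR adjusted p = 0.000506). Mgst2, a microsomal glutathione transferase that can make leukotriene C4, rose to 8.74 ± 0.797 FPKM in treated cells, against 6.08 ± 0.219 FPKM in control cells (SD, n = 3 each; 0.49, edgeR adjusted p = 0.00304). Aloxe3, an epidermal lipoxygenase, had 0.689, 0.527 and 0.493 FPKM in treated libraries, against 0.271, 0.0683 and 0.208 FPKM in control libraries (1.61, edgeR adjusted p = 0.0082). The soluble epoxide hydrolase gene Ephx2 fell to 0.498 ± 0.129 FPKM in treated cells, against 1.01 ± 0.157 FPKM in control cells (SD, n = 3 each; -1.04, edgeR adjusted p = 0.0072). Ephx1, the microsomal hydrolase, was at 295 FPKM in treated and 276 FPKM in control cells (0.07, edgeR adjusted p = 0.542; 0.20 and called with the GC correction, at 0.0176).

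Among 8938 tested genes with a mean of at least 1 FPKM, predicted genes, pseudogenes and clone names left out, the pattern over the 6 libraries nearest to that of Ptgs2 was that of the cyclin gene Ccng2. Likeness was the Euclidean distance between centred log2(FPKM + 1) values, a scale that understates the change of low genes, and it is a description with no test. Ccng2 (distance 0.148) had 22.9 FPKM in treated and 5.76 FPKM in control cells on average, a log2 fold change of 1.95. It was followed by Rsrp1, an arginine- and serine-rich protein (distance 0.293; 31.4 FPKM in treated and 7.91 FPKM in control cells), and Inhba, the activin A subunit (0.358; 8.07 FPKM in treated and 1.77 FPKM in control cells). The other two were low in control cells: Eif4a3l1 (0.378; 2.60 FPKM in treated and 0.0928 FPKM in control cells; log2 fold change 4.70, and 6.23 without control 2) and Sprr1a (0.383; 2.44 FPKM in treated and 0.0412 FPKM in control cells).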
